A study of Mus musculus with 4 samples.

Results

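The regions described here are the autosomal stretches of at least 200 bp, measured as end minus start, at which the methylation of DNA from mouse prefrontal cortex differed between the parental chromosomes. They were taken from the authors' deposited list of allelic regions by chromosome name, length and the presence of a level for each allele. Within that list neither the levels nor the direction chose them. The list itself holds regions reported to differ between the alleles, so the level differences given below are those of selected regions. Of 1613 listed regions, 361 met these conditions, beside 645 shorter autosomal regions and 436 X-linked regions of 200 bp or more with both levels. The lengths nearest to the limit were 198, 197 and 197 bp below it and 201, 202 and 203 bp above it. The shortest of those above it, on chromosome 14, had levels of 0.231 on C57 and 0.84 on Spretus, and the longest of those below it, on chromosome 11, had 0.457 and 0.62.

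Genomic imprinting is the expression of a gene from the copy of only one parent. It is controlled by stretches of DNA whose cytosines are methylated on the chromosome from the mother or on the one from the father. Most of these imprinting control regions acquire the mark in the egg and a few in sperm, and the protein ZFP57 is known to keep it in the early embryo by binding methylated copies of the letters TGCCGC. Outside such loci, alleles of different strains can also differ in methylation because their sequences differ.

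The tissue came from female mice aged 14 weeks, the F1 offspring of C57BL6J and Spretus parents, which carried an Xist mutation on the allele of the mother. Per the labels' protocols, frontal cortex of 2 individuals from separate litters was pooled, RNA and DNA were taken from pooled tissue, and the 2 MethylC-seq libraries were separate amplifications of the same converted DNA. MethylC-seq is bisulfite sequencing that reads methylation at single cytosines. RNA-seq was made as 2 libraries, with 4768237 and 1291903 reads assigned to an allele, of which 47.9% and 48.0% of the autosomal reads were Spretus. The order of names in the strain label was read as mother first, which makes C57 the mother's allele and Spretus the father's. No label states this directly, and the reading was made knowing how Xist and imprinted genes behaved in these data. Only 1 direction of the cross is present, so an effect of strain and one of parent cannot be told apart at any single region. No group without the Xist mutation was part of these data.

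Each region has 1 methylation level per allele, a fraction from 0 to 1, with no value per library. The sources used here do not give the coverage behind it, the cytosine context or the calling thresholds. A region's level therefore carries no error, and no test over samples was possible. The labels do not say whether the RNA libraries were made from 1 pool or from several, and the p-values for reads therefore reflect a spread between libraries that may be only technical. Of the cell type markers, 4 of 4 each for neurons, excitatory neurons, interneurons, astrocytes and microglia, 3 of 4 for oligodendrocytes and 3 of 3 for endothelium had at least 1 FPKM in both libraries, while all 3 markers each of choroid plexus, cerebellum and olfactory bulb were below it in at least 1 library. All 3 haemoglobin markers of blood were also above 1 FPKM in both. Their median was 291 FPKM in library 1 and 20.5 in library 2, beside 455 and 107 for the neuron markers.

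Some promoter sequences under the regions are shown here. They run from 250 bases before to 50 after the gene's start in the direction of transcription, from RefSeq on build GRCm38.p6, with each CG, the letters at which mammalian DNA is mostly methylated, in capitals. The list's build, mm10, is the same assembly. The first 4 lie under regions at imprinted loci and were chosen because both the methylation and the reads of their genes were nearly from 1 allele each. Others not shown meet this too, such as Kcnq1ot1 (0.936 on C57 and 0.0191 on Spretus) and Zrsr1 (0.931 and 0.0102). All 4 shown hold the letters TGCCGC, while the windows of Kcnq1ot1 and Zrsr1 do not. The other 4 lie under regions outside imprinted loci, and of their genes Rnf212, Spesp1 and Tlr6 had reads of 1 allele only. Mest is at chr6:30737800-30738099, + strand, wholly inside its region. Snrpn is at chr7:60005150-60005449, - strand, with 134 bases covered. Plagl1 is at chr10:13090582-13090881, + strand, and Meg3 at chr12:109540746-109541045, + strand, each wholly inside its region. Rnf212 is at chr5:108774978-108775277, - strand, with 135 bases covered, and Spesp1 at chr9:62282130-62282429, - strand, with 151. Tlr6 is at chr5:64959999-64960298, - strand, wholly covered, and Ppp2r3c at chr12:55302951-55303250, - strand, with 157 bases covered.
Mest: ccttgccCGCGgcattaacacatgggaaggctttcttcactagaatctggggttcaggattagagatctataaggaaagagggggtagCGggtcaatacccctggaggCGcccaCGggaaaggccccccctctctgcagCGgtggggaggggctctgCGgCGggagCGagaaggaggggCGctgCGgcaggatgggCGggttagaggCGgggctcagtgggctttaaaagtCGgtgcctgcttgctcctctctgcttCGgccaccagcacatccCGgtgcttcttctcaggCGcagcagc
Snrpn: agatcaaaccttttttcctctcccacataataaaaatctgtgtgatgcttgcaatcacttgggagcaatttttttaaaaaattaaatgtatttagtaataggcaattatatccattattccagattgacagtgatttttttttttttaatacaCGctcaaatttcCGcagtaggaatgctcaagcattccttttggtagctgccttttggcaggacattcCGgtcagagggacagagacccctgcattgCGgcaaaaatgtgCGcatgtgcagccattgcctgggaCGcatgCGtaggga
Plagl1: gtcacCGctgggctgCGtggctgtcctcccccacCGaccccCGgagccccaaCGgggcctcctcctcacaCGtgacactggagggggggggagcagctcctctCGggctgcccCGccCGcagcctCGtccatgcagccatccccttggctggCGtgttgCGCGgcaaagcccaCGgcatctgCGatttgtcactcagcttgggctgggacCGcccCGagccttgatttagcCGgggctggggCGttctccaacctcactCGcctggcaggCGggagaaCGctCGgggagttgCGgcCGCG
Meg3: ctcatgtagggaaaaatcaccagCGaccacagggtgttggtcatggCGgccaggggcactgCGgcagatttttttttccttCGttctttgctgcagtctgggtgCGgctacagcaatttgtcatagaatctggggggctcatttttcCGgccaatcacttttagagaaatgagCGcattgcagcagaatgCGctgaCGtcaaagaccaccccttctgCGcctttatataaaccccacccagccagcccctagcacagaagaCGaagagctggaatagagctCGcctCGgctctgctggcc
Rnf212: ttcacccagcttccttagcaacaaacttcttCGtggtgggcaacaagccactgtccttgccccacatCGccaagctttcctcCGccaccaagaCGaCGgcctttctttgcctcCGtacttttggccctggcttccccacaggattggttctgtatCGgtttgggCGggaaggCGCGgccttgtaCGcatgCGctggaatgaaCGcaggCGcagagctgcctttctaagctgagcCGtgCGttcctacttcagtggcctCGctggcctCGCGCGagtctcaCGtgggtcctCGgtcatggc
Spesp1: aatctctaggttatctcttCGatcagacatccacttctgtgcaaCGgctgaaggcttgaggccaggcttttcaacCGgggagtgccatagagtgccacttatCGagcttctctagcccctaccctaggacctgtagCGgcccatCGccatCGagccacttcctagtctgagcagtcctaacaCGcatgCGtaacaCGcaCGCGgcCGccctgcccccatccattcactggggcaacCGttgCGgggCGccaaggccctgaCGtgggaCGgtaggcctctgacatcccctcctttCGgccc
Tlr6: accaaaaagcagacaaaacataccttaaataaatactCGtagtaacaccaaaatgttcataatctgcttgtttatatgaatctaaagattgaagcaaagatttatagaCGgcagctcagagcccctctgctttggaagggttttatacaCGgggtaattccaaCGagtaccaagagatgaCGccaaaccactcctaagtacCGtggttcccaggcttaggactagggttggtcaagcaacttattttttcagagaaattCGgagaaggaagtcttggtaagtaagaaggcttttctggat
Ppp2r3c: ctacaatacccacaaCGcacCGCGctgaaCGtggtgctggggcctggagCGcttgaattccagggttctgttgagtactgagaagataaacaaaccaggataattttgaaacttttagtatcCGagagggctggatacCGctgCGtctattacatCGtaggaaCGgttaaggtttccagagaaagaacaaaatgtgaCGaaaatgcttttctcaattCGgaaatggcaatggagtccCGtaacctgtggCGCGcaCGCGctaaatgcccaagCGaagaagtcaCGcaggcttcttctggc

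These windows differ in how many CG they hold. The counts were 17 for Mest, 7 for Snrpn, 26 for Plagl1, 13 for Meg3, 22 for Rnf212, 19 for Spesp1, 7 for Tlr6 and 19 for Ppp2r3c. Over all 32851 promoter windows of this length in the RefSeq table the median was 7 (quartiles 3 and 20). Over the 20 windows under regions at imprinted loci, some of which overlap each other, it was 14.5, and over the 16 windows under other regions it was 13. The letters TGCCGC, which contain a CG, were searched on both strands. They were present in 8 of the 20 windows at imprinted loci (40.0%), among them Mest with 2 matches and Snrpn, Plagl1 and Meg3 with 1 each, in 0 of the 16 windows elsewhere, and in 11.6% of all windows. Several of the 8 share letters, such as those of Snrpn and Snurf, which are identical. With overlapping windows counted once, by the one that starts first, the numbers were 5 of 15 (33.3%) at imprinted loci, 0 of 15 elsewhere and 10.9% of all. A match describes the letters only.

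In the long autosomal regions the higher level lay on C57 in 211 and on Spretus in 150, or 58.4% on C57 (exact Clopper-Pearson 95% interval 53.2 to 63.6%, for counting error only). Shorter autosomal regions leaned much further to C57, with 527 of 645 (81.7%, 78.5 to 84.6%). Long X-linked regions leaned the other way, with 44 of 436 (10.1%, 7.43 to 13.3%) higher on C57. The shorter autosomal regions had a median length of 19 bp and a median Spretus level of 0, beside 411 bp and 0.515 in the long ones. Whether cytosines were lost or gained in Spretus under any of the regions was not checked. The direction differed between long and short autosomal regions (Fisher's exact test, two-sided, odds ratio 0.315, p = 4.7e-15) and between long autosomal and long X-linked regions (odds ratio 12.5, p = 3.7e-50). Neighbouring regions are not independent, so these p-values describe the list and not replicate animals. Above 200 bp the share changed little with length. It was 58.2% among 98 regions under 300 bp, 57.1% among 140 from 300 to under 500 bp, 58.5% among 94 from 500 to under 1000 bp and 65.5% among 29 of 1000 bp or more, with intervals that overlap.

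**Figure D1:**
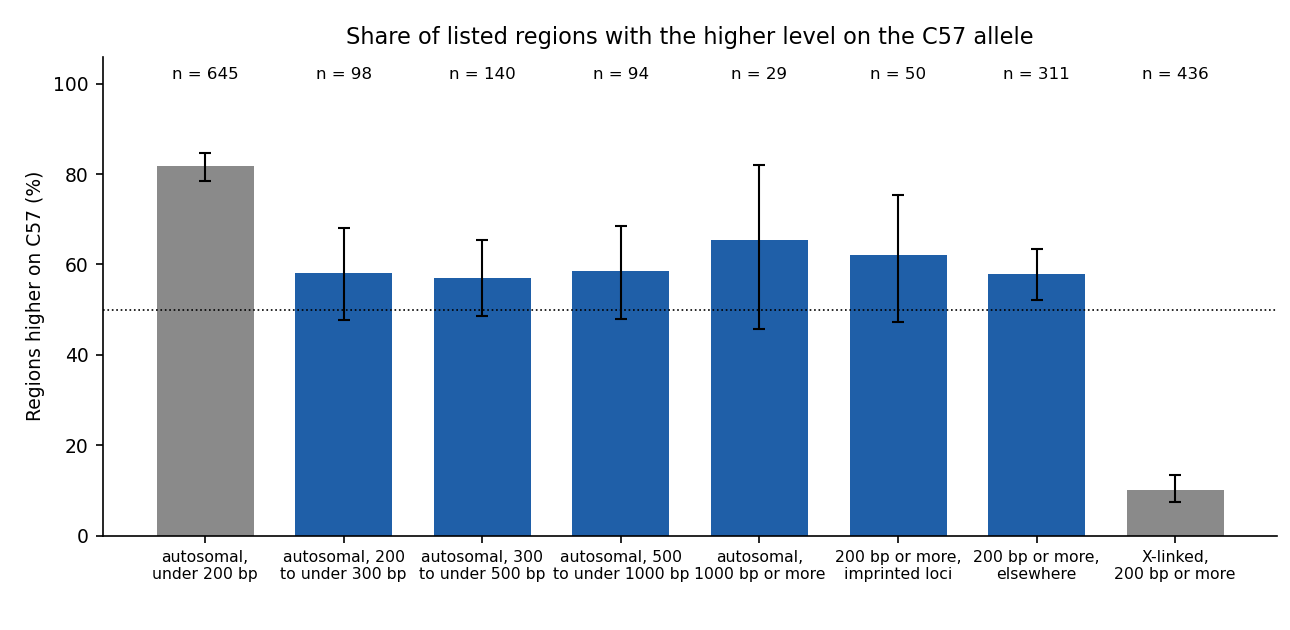
Percentage of listed regions with the higher methylation level on C57 (y axis) by chromosome class, length and place (x axis), with exact 95% intervals as bars and the number of regions above each column. The long autosomal classes lie between 57.1% and 65.5%, below the shorter autosomal regions at 81.7% and above the X-linked regions at 10.1%.

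The allele with the higher level had a median level of 0.855 and the other allele a median of 0.201, and the median difference was 0.569. Near-complete differences were a minority. In 49 regions (13.6%) the difference was at least 0.8, and in 13 it was below 0.2. The smallest was 0.00313, in a region of 215 bp inside Nfib, a transcription factor gene, with 0.782 on C57 and 0.785 on Spretus, and 12 of the 13 were higher on C57. The regions covered 200 kb in all, and 177 of them (49.0%) overlapped a gene locus of the RNA-seq table, close to the 49.6% of shorter autosomal regions and below the 74.8% of long X-linked regions. Only 69 overlapped a locus with at least 1 FPKM in both RNA libraries, and a gene's FPKM in library 1 was 5.68 times that in library 2 in the median. By chromosome they ranged from 4 on chromosomes 16 and 19 to 35 on chromosome 7, or from 0.422 regions per 10 Mb of the span of listed genes on chromosome 16 to 2.46 on chromosome 7, which also held 13 of the regions at imprinted loci.

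Regions at imprinted loci were set apart by their levels and lengths more than by their direction. A locus counts here as imprinted within 50 kb of a gene of 2 lists of maternally and paternally expressed genes, and 50 regions lay there, 31 higher on C57 and 19 on Spretus. Their median difference was 0.824 against 0.546 in the 311 regions elsewhere, and 54.0% of them against 7.07% reached 0.8. The lower allele was below 0.1 in 34 of the 50 (68.0%) and in 76 of the 311 (24.4%). The median length was 955 bp against 385 bp. Of the 29 regions of 1000 bp or more, 22 lay at imprinted loci. The 7 elsewhere were all higher on C57. They include regions between Snrpn and Magel2, given below, that count as elsewhere only by the 50 kb limit. Inside a gene locus lay 35 of the 50 (70.0%) and 142 of the 311 (45.7%).

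**Figure D2:**
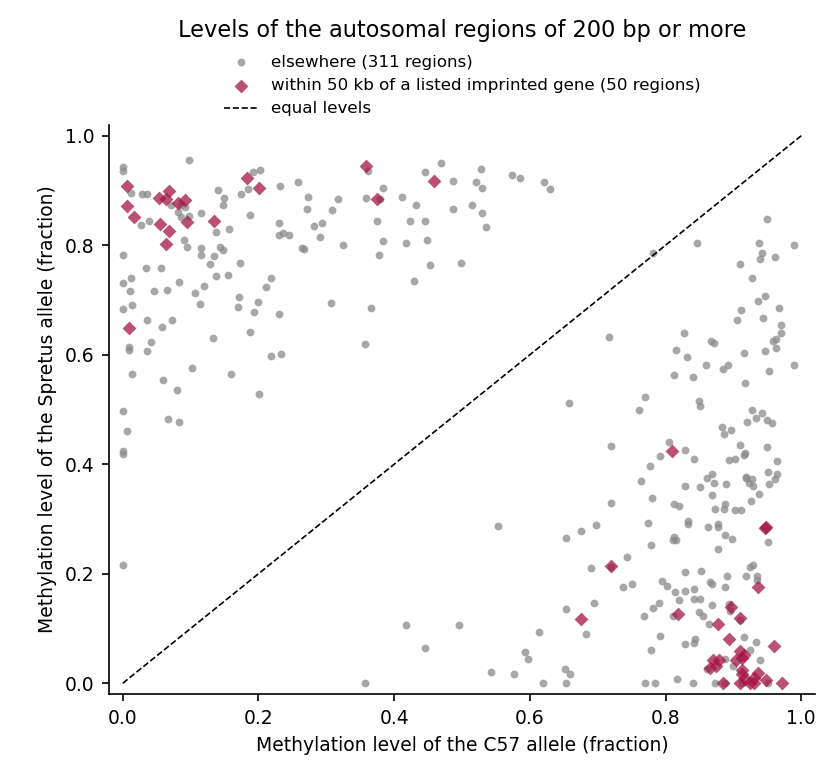
Methylation level of the C57 allele (x axis, fraction) against that of the Spretus allele (y axis, fraction), with 1 point per region, diamonds for the 50 regions within 50 kb of a listed imprinted gene and grey circles for the 311 elsewhere. The diamonds gather in the corners where 1 allele is high and the other near 0, while the grey points reach towards the line of equal levels.

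At imprinted loci nearly every region was higher on the allele assigned to the parent known for the mark. That assignment was made with earlier results for imprinted genes in these data known, so the count is a description and no independent check of it. Of 49 regions within 50 kb of a gene with a known methylated parent, 47 were higher on the allele of that parent. These were 31 regions of maternal marks, all on C57, and 16 of paternal marks, all on Spretus. Of the 28 genes with a known methylated parent that the RNA-seq table holds, 27 had a long region within 50 kb. The one without was Igf2, the gene of an insulin-like growth factor. The 2 regions that went against the parent listed for their gene lie at the Nespas end of the Gnas locus on chromosome 2, at 174283267 to 174284657 (0.0681 on C57 and 0.899 on Spretus) and at 174285370 to 174287503 (0.00588 and 0.908). Gnas encodes the stimulatory G protein alpha subunit and Nespas is an antisense transcript from the same locus. That locus is known to carry marks of both parents, and the list used here names only the maternal one. The next 3 regions of the cluster, from 174294261 on, were higher on C57, with 0.893, 0.931 and 0.91 on C57 against 0.0808, 0 and 0 on Spretus. A further region at 174326423 to 174327601 had 0.936 and 0.175.

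Among the paternal marks the longest stretch lay at Zdbf2, a paternally expressed zinc finger gene on chromosome 1. It held 8 regions over 29055 bp, including the longest of all, 6639 bp at 63262116 to 63268755 with 0.0917 on C57 and 0.882 on Spretus. Over the 8 regions the C57 level stayed between 0.0549 and 0.201 and the Spretus level between 0.802 and 0.922. The 6 outside the listed locus of Zdbf2 reach up to 23384 bp from it. Near Rasgrf1, which encodes a Ras exchange factor, 3 regions stood 26002 to 31746 bp from the gene on chromosome 9, with C57 levels of 0.134, 0.0166 and 0.0633 and Spretus levels of 0.845, 0.851 and 0.884. Beside H19, a maternally expressed noncoding RNA, the region of 772 bp nearest to the gene was less divided, at 0.374 and 0.885, than its neighbour of 2644 bp, at 0.0535 and 0.886. At Meg3, also a maternally expressed noncoding RNA, it was the region farther away, 12398 bp before the gene, that was less divided (0.358 and 0.944), while the one over its start had 0.00693 and 0.872. On the same chromosome 12, a region at 109704379 to 109704857, 24907 bp from the noncoding RNA gene Mirg, had 0.459 and 0.918. Cdkn1c, the gene of a cyclin-dependent kinase inhibitor, held a region of 541 bp with 0.00909 and 0.648, the lowest level of a methylated allele among the paternal marks.

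Maternal marks lay in 31 regions, of which 21 (67.7%) had a Spretus level below 0.1. The most divided was at Peg10, a gene derived from a retrotransposon, with 0.972 on C57 and 0 on Spretus over 1103 bp at 4747735 to 4748838 on chromosome 6. Beside it a region of 292 bp in Sgce, the epsilon-sarcoglycan gene, had 0.91 and 0.0588. The longest covered Peg13, a noncoding RNA inside Trappc9, over 5021 bp (0.96 and 0.0683). Mest, a hydrolase-like gene, had 0.917 and 0.00765 over 3023 bp, Kcnq1ot1, an antisense noncoding RNA, 0.936 and 0.0191 over 2489 bp, and Airn inside Igf2r 0.916 and 0.0523 over 1853 bp. Inpp5f, a phosphoinositide phosphatase gene, had 0.948 and 0.00567 over 505 bp. Slc38a4, an amino acid transporter gene, had 0.884 and 0 over 1625 bp, while a region of 359 bp lying 41989 bp from it had only 0.809 and 0.424. At Peg3 and Usp29, a pair of zinc finger and ubiquitin protease genes on chromosome 7, 3 regions within 5364 bp had 0.865, 0.925 and 0.912 on C57 and 0.0282, 0 and 0.0469 on Spretus. Nap1l5 (0.913 and 0.0245), Grb10 (0.904 and 0.0423), Plagl1 (0.91 and 0.12) and the region of Mcts2 inside H13 (0.897 and 0.14) had 1 region each. Nnat, the gene of the membrane protein neuronatin, and Zrsr1, a splicing factor retrogene inside Commd1, each had a fully divided region (0.879 and 0.0432, 0.931 and 0.0102) and a shorter one with more methylation on Spretus (0.948 and 0.285, 0.946 and 0.284).

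Impact, a gene of translation control on chromosome 18, had 2 regions at 0.87 and 0.042 and at 0.874 and 0.0314.

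In the Prader-Willi region of chromosome 7, which is silent on the maternal chromosome, regions away from Snrpn were less divided. Snrpn, a small nuclear ribonucleoprotein gene at the imprinting centre, had 0.912 on C57 and 0.0164 on Spretus. Magel2 had 0.819 and 0.126, and the 3 regions near Mkrn3 had 0.675 and 0.117, 0.877 and 0.109, and 0.72 and 0.215. Another 3 regions between Snrpn and Magel2 lay more than 50 kb from a listed gene and were therefore counted as elsewhere. They were at 60622091 to 60623204 (0.659 and 0.0177), at 60939735 to 60940304 (0.877 and 0.291) and at 61981618 to 61982658 (0.79 and 0.146), all higher on C57. The last covers Mir344g, a microRNA gene with 0 C57 reads and 15 and 5 Spretus reads in libraries 1 and 2. Among regions elsewhere, 2 more lay within 200 kb of a listed gene. A region of 203 bp inside Wdr25, 52106 bp from Begain on chromosome 12, was higher on Spretus (0.317 and 0.884), with Wdr25 reads close to even (39 C57 and 40 Spretus, then 8 and 9). One inside Stx11 on chromosome 10, 109612 bp from Plagl1, was higher on C57 (0.97 and 0.655).

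**Figure D3:**
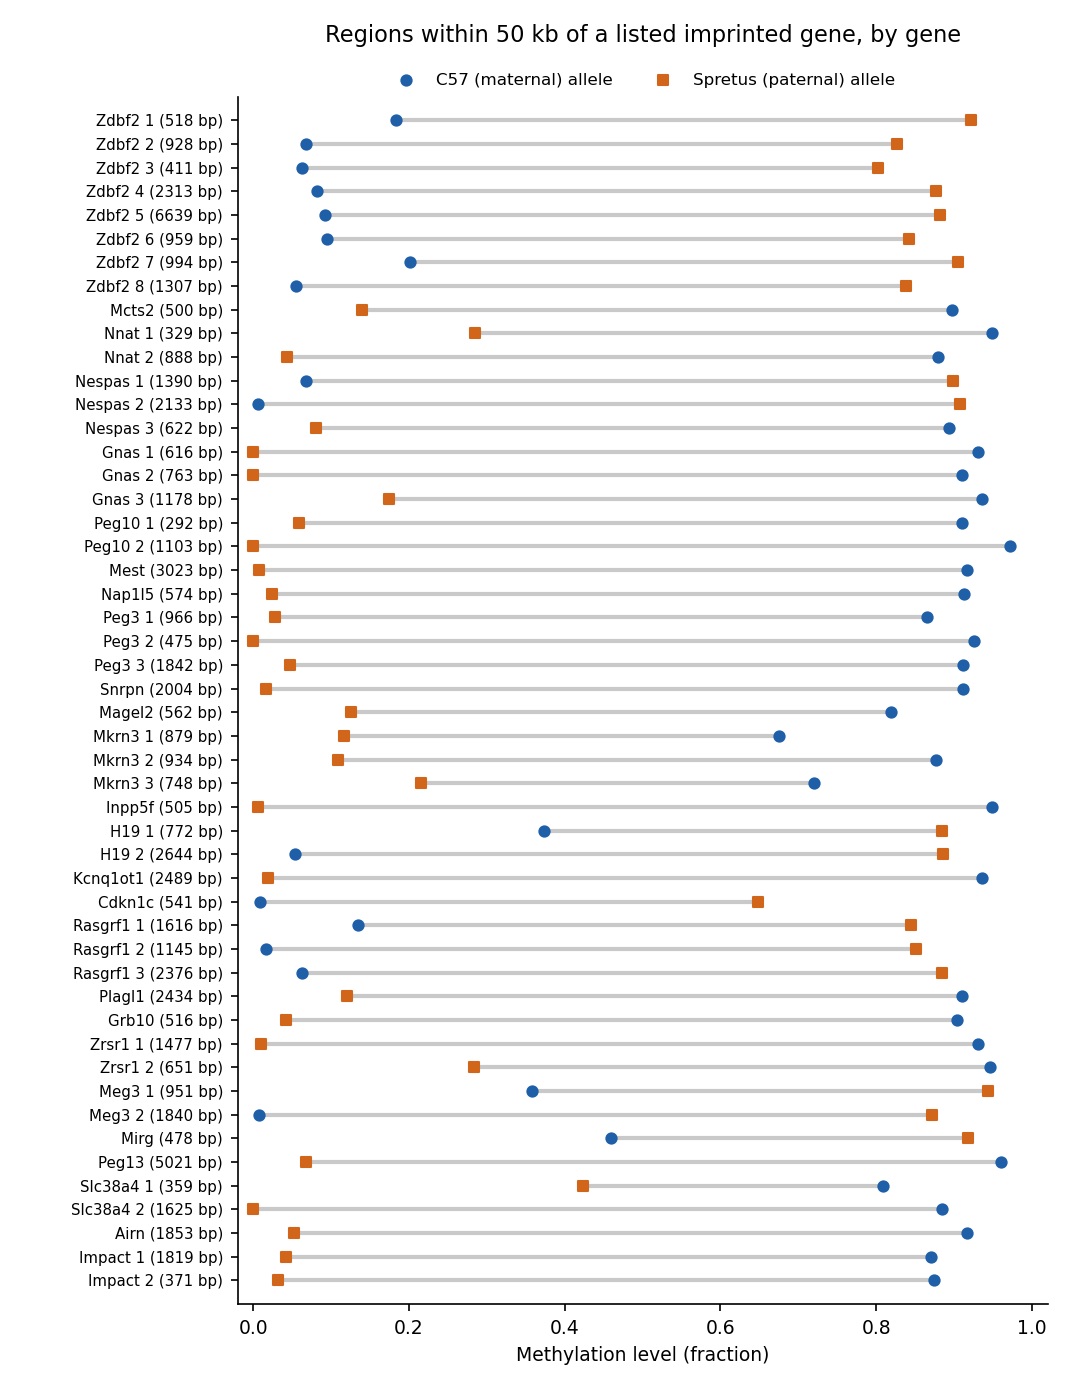
Methylation level of the C57 allele (circles) and the Spretus allele (squares) in each of the 50 regions within 50 kb of a listed imprinted gene (x axis, fraction), named by the gene with a known methylated parent, or by the nearest listed gene, with the region's length. The 8 regions at Zdbf2 and those at H19, Meg3, Mirg, Rasgrf1 and Cdkn1c have the square on the right, as do 2 regions at Nespas, while the 31 others with the circle on the right are maternal marks.

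Clusters lay mostly at imprinted loci at the distance used. Joining regions at most 10 kb apart gave 11 clusters with 33 regions, and 10 of the clusters, with 31 regions, lay at imprinted loci. The other was a pair inside Bcas1, a gene of myelinating oligodendrocytes on chromosome 2, at 170405240 to 170412014, both higher on Spretus (0.453 and 0.764, 0.0949 and 0.796). Clusters of 3 or more regions stood at Zdbf2 (8), Gnas and Nespas (5), Peg3 and Usp29 (3) and Rasgrf1 (3). The Gnas cluster was the only one of the 11 with both directions. With joining up to 50 kb there were 20 clusters, of which 9 lay elsewhere, and with joining up to 2 kb there were 12, of which 0 did.

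**Figure D4:**
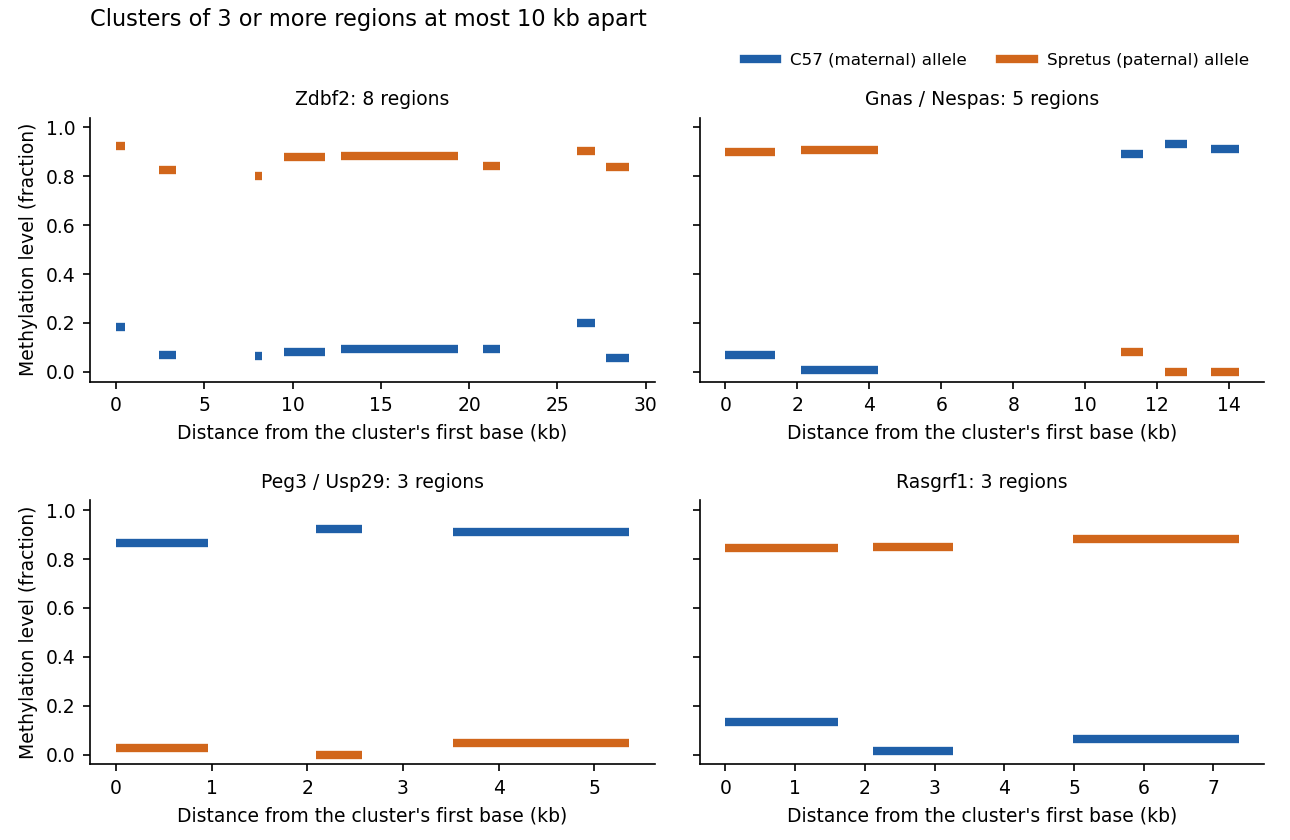
Levels of each allele (y axis, fraction) along the 4 clusters of 3 or more regions, with each bar spanning 1 region and the x axis giving the distance in kb from the start of the cluster. C57 is low throughout Zdbf2 and Rasgrf1 and high throughout Peg3, while at Gnas the alleles change places between the 2 regions on the left and the 3 on the right.

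Away from imprinted loci, 180 regions were higher on C57 and 131 on Spretus. The less methylated allele was lower where Spretus carried the mark, with a median C57 level of 0.172, than where C57 carried it, with a median Spretus level of 0.316. The more methylated allele showed medians of 0.8 and 0.868 in the same order. The most divided region was in Zfp804b, a zinc finger gene, with 0.951 on C57 and 0 on Spretus. Pik3cb, which encodes a catalytic subunit of phosphoinositide 3-kinase, held a region with 0.887 and 0. The strongest in the other direction were a region on chromosome 7 at 39655778 to 39656001 (0 on C57 and 0.943 on Spretus), between genes, and one 1628 bp from Pink1, a mitochondrial kinase gene (0 and 0.935). These were named after their values were seen, and the bases under them were not compared between the alleles.

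The longest regions elsewhere were often partial differences. On the C57 side the longest, 1192 bp at 54528242 to 54529434 on chromosome 10, lay 183542 bp from the nearest listed gene and had 0.892 and 0.581. Regions of 1061, 1000 and 850 bp inside Tbc1d4, a Rab GTPase-activating gene, C2cd3, a centriole gene, and Otogl had Spretus levels of 0.522, 0.667 and 0.74 beside C57 levels of 0.769, 0.943 and 0.927. The rest of the 10 longest were the Prader-Willi regions of 1113 and 1040 bp given above, one of 1092 bp lying 6421 bp from Gm13605 (0.593 and 0.057), one of 1028 bp lying 15561 bp from Enc1 (0.792 and 0.415), one of 997 bp over Tlr6 (0.737 and 0.176) and one of 963 bp over 4930533I22Rik and RP24-491O6.1 (0.813 and 0.267). On the Spretus side the 10 longest ran from 679 to 927 bp. The most divided of them were in Acer2, a ceramidase gene (820 bp, 0.0855 and 0.852), 5590 bp from D17Wsu92e (679 bp, 0.0133 and 0.69), and in Uggt2, a glucosyltransferase of the endoplasmic reticulum (840 bp, 0.046 and 0.716). Others lay in Gm13977 (0.535 and 0.833), in Catsperg1 (0.211 and 0.723), 1583 bp from Gm5814 (0.529 and 0.859) and 3889 bp from Ostc (0.272 and 0.867), and the pair in Bcas1 completes the list with a region 12515 bp from Vmn2r-ps3 (0 and 0.216).

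Of the genes that hold these long regions, 5 had enough reads for the test. Tbc1d4 had 96 C57 and 66 Spretus reads in library 1 and 17 and 14 in library 2. Uggt2 had 304 and 226, then 75 and 62, and Acer2 had 51 and 63, then 9 and 14. C2cd3 stood at 251 and 261, then 59 and 60, and Bcas1 at 292 and 326, then 64 and 65. None of the 5 was called by the quasi-likelihood test of edgeR (Benjamini-Hochberg adjusted p from 0.438 to 0.691). When the library was added to the fit as a block, Bcas1 was called toward Spretus, with an adjusted p of 0.0457. Mir344g (given above) and Tlr6, with 5 and 1 Spretus reads, had reads of Spretus only, as did 4930533I22Rik with 1 read. Catsperg1 and Otogl had too few reads for the test, and Gm13977, Bcas1os1 and RP24-491O6.1 had 0.

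For genes that overlap a long region or lie within 10 kb of one, the reads show how expression was divided at the same place. There were 435 such genes, of which the 188 with 10 or more reads assigned to an allele in both libraries were tested, with a median of 214 reads in library 1 and 52 in library 2. Across all 11584 tested autosomal genes, 629 (5.43%) were called, 352 (3.04%) toward C57 and 277 (2.39%) toward Spretus. Among genes near regions at imprinted loci, 23 of 28 (82.1%) were called, 6 toward C57 and 17 toward Spretus. Of these 28 genes, 25 are in the lists of imprinted genes that defined the loci, and 21 of the 25 were called. Their share of calls therefore follows from how the class was made and does not measure an effect of nearness to a region. Among those near regions elsewhere, 13 of 160 (8.12%) were called, 8 toward C57 and 5 toward Spretus. Adding the library as a block raised the calls to 2603 autosomal genes (22.5%), 1313 (11.3%) toward C57 and 1290 (11.1%) toward Spretus. This fit called the same number, 23, at imprinted loci and 39 of 160 (24.4%) elsewhere, so the share of called genes elsewhere was near that of all autosomal genes with the block and 8.12% beside 5.43% without it. Their median Spretus share was 47.2%, beside 48.1% over all tested autosomal genes, and was 47.0% near regions higher on C57 and 47.5% near regions higher on Spretus. In these bulk samples each share is taken over all cell types together, and the shares in single cell types are not known.

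At imprinted loci most called genes had more reads from the allele with less methylation. This held for 18 of the 23 called. Peg13 had 7 C57 and 1142 Spretus reads in library 1 and 1 and 413 in library 2, or 99.6% ± 0.26 Spretus (SD, n = 2). Mest had 2 and 306, then 0 and 80. Sgce (5 and 155, then 0 and 35) and Peg10 (6 and 152, then 0 and 40), which share a promoter region, were as one-sided as each other. In these 4 genes the Spretus share lay between 96.2% and 100% in each library. Grb10, an adaptor gene known for expression from the father's allele in neurons, was less complete at 85.7% and 86.4%. Inpp5f reached 58.5% and 67.4%, beside a region with almost no methylation on Spretus, and it was not called by DESeq2 (adjusted p = 0.294) or with a shared library total (adjusted p = 0.151).

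The 5 called genes with more reads from the more methylated allele were Zdbf2, Commd1, Trappc9, H13 and Copg2. Zdbf2 had 9 C57 and 205 Spretus reads in library 1 and 8 and 65 in library 2, beside regions that are high on Spretus. Trappc9 (443 and 235, then 115 and 47), H13 (301 and 158, then 60 and 29) and Commd1 (47 and 18, then 14 and 3) are the hosts of Peg13, Mcts2 and Zrsr1, and their C57 allele carries the mark within the gene. Of the inner genes, Peg13 and Zrsr1 were called toward Spretus, with 86 of 92 and 32 of 34 reads for Zrsr1. Mcts2, with 9 C57 and 18 Spretus reads in library 1 and 1 and 6 in library 2, was too low to test. Copg2 (163 and 74, then 46 and 18) lies 7724 bp from the region over the start of Mest. DESeq2 did not call Commd1 (adjusted p = 0.299), H13 (0.249) or Copg2 (0.0866). The tested genes that were not called were Igf2r, Blcap, Herc3, Mcmbp and Gnas, with mean Spretus shares between 44.5% and 49.9%. Gnas and Nespas, Igf2r and Airn, Kcnq1 and Kcnq1ot1, and Snrpn, Snurf and Gm38393 overlap each other, and the sources used here do not say whether counting used strand, so their reads cannot be told apart with certainty.

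Several genes at imprinted loci had reads of 1 allele only. B830012L14Rik, a noncoding gene 1792 bp from the region near Mirg, had 83 and 26 C57 reads and 0 Spretus reads, which allows a Spretus share of up to 2.75%. Cdkn1c had 25 and 5 C57 reads and 0 Spretus (up to 10.0%), beside the region with its mark on Spretus. Airn, the antisense transcript to Igf2r, had 19 and 5 Spretus reads and 0 C57 (up to 12.5%), and Magel2 had 5 and 1 Spretus reads and 0 C57 (up to 50.0%). These limits take 3 reads of the total over both libraries and cover counting error only. Slc38a4, with 7 C57 and 4 Spretus reads in library 1 and 1 and 0 in library 2, was too low to place.

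**Figure D5:**
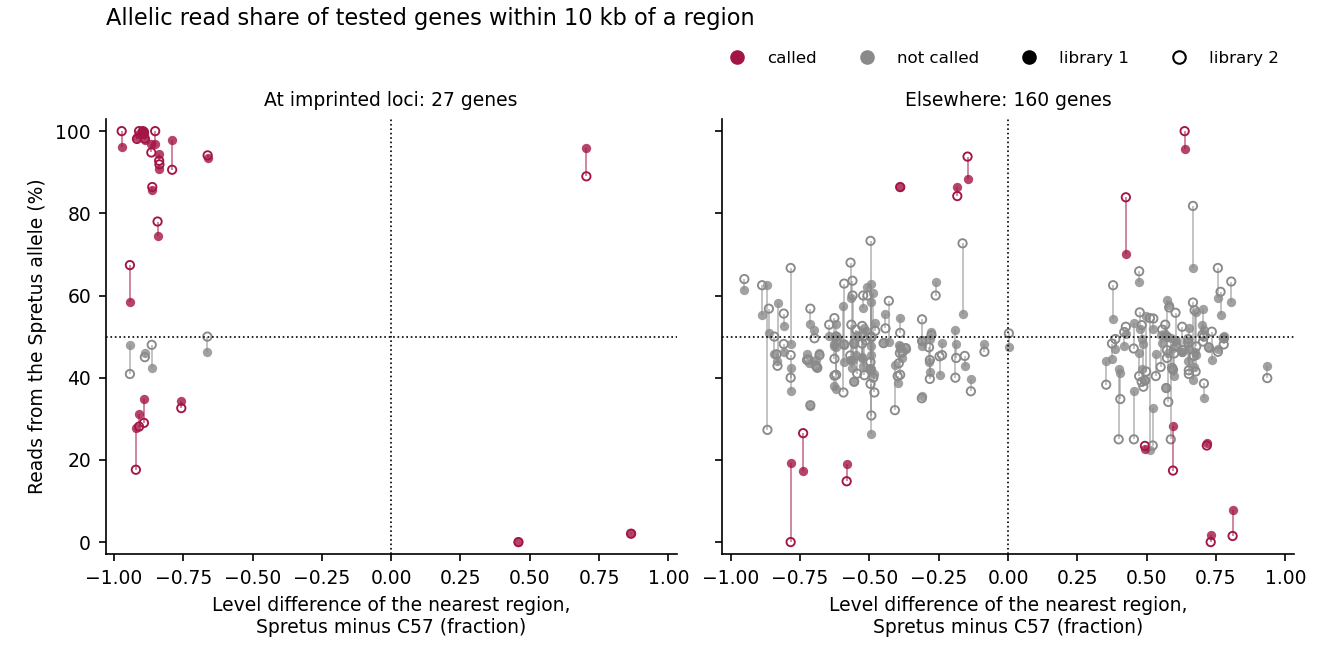
Percentage of reads from Spretus (y axis) for each tested gene near a region, against the level difference of the nearest region, Spretus minus C57 (x axis, fraction), with filled points for library 1, open points for library 2 and a line joining them, and red for genes called by edgeR. At imprinted loci (27 genes with a region of 1 direction nearby) most points lie at the top left, and elsewhere (160 genes) most lie near the middle at any difference.

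Elsewhere, the 13 called genes showed no common direction against the methylation, with 8 having more reads from the less methylated allele and 5 from the more methylated one. With the block these numbers were 22 and 17 of 39. Toward C57 the most one-sided was Gm16432, with 108 C57 and 2 Spretus reads in library 1 and 30 and 0 in library 2 (log2 ratio of Spretus over C57 -5.84, SE 0.522, edgeR adjusted p = 7.91e-06). A region of 238 bp with 0 on C57 and 0.731 on Spretus stands 185 bp from its listed start. Clcn4-2, a chloride-proton exchanger gene, had 800 and 67 reads, then 266 and 4 (log2 ratio -4.00, SE 0.343, adjusted p = 5.71e-06), with a region of 282 bp lying 3924 bp away on chromosome 7 at 0.027 on C57 and 0.837 on Spretus. As background, this gene is autosomal in C57BL/6 mice, while its counterpart in Mus spretus is known to lie on the X chromosome. The part of that placement in these values was not tested. Nvl, an ATPase of ribosome assembly, had 415 and 122, then 85 and 26 (log2 ratio -1.60, SE 0.184, adjusted p = 6.44e-05), and a region 770 bp upstream of its start, inside Cnih4, was at 0.0591 and 0.553. Fyb, an adaptor gene of blood cells, and Tnfrsf11a, the receptor RANK, held regions higher on Spretus (0.185 and 0.902, 0.173 and 0.768) and had mean Spretus shares of 23.8% and 22.8%. DESeq2 called neither (adjusted p = 0.312 and 0.153).

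The most one-sided of the 5 called genes with more reads from the more methylated allele was Tex14. Tex14, a gene of germ cell bridges, had 3 C57 and 66 Spretus reads in library 1 and 0 and 13 in library 2 (log2 ratio 4.72, SE 0.506, edgeR adjusted p = 3.53e-05), around a region inside the gene of 0.128 on C57 and 0.765 on Spretus. Ppp2r3c, a regulatory subunit gene of protein phosphatase 2A, had 36 and 84, then 5 and 26 (log2 ratio 1.62, SE 0.319, adjusted p = 0.0057). Its start, shown in the promoter window above, is covered by a region of 548 bp with 0 on C57 and 0.425 on Spretus. The gene 1110008L16Rik, whose start lies under the same region on the opposite strand, was even at 43 and 44, then 10 and 11. Fam163a (90 and 21, then 23 and 4) held a region of 0.965 and 0.383. Gsta4, a glutathione transferase gene, had 105 and 22, then 25 and 9, with a region 5151 bp away at 0.935 and 0.196. Gm20628, with 21 and 5, then 10 and 0 reads, lies 3313 bp from a region at 0.784 and 0, and DESeq2 did not call it (adjusted p = 0.125).

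The remaining 3 called genes lay by regions higher on C57 and had most reads from Spretus, the less methylated allele. Tph2, the enzyme of serotonin synthesis in neurons, had 8 C57 and 61 Spretus reads in library 1 and 1 and 15 in library 2, with a region inside the gene that differed little, at 0.658 and 0.512. A930015D03Rik had 6 and 38, then 3 and 19, over a region at 0.496 and 0.107. Gm5421 had 6 and 38, then 3 and 16, 4095 bp from a region at 0.962 and 0.779.

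How a region sits against a gene's start was read at a distance of 2 kb, a limit set after the data were seen, for the 340 regions on chromosomes that the promoter table covers. At imprinted loci 23 of 48 regions (47.9%) lay that close to a RefSeq start and elsewhere 53 of 292 (18.2%), against 8.64% of shorter autosomal regions and 63.1% of long X-linked regions. Elsewhere the share was 26.4% for regions higher on Spretus and 12.3% for regions higher on C57. At imprinted loci 11 tested genes had regions of 1 direction at the start. All 11 were called, and in 10 of them the less methylated allele had more reads, Commd1 being the exception. All 11 are also in the lists of imprinted genes that defined the loci. Their calls therefore follow from how the class was made and do not measure an effect of a region at the start. Gnas, with regions of both directions at its starts, was tested and not called (edgeR adjusted p = 0.939). Elsewhere 2 of 21 tested genes (9.52%) were called, Nvl and Ppp2r3c, beside 5.43% of all tested autosomal genes. With the library as a block there were 5 of 21 (23.8%), with Pink1, Akap7 and Ddx19a added, close to the 22.5% of all tested autosomal genes in that fit.

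Among the tested genes elsewhere with a region beside the start, some with strongly divided regions had near-even reads and were not called. The following were named after their values were seen. Ddost, an oligosaccharyltransferase gene, had 251 C57 and 267 Spretus reads in library 1 and 70 and 70 in library 2, with a region 631 bp before its start at 0.0105 and 0.717. Mrps24, a mitochondrial ribosome gene, had 48 and 53, then 12 and 15, with the mark on the other allele at 0.817 and 0.0081. Cct8, a chaperonin subunit gene, had 348 and 345, then 128 and 104, beside a less divided region at 0.362 and 0.935. The start of B130034C11Rik, on the opposite strand, lies 389 bp from the same region. That gene had 16 and 2 reads, then 5 and 0, too few for the test. Wrb had 232 and 195, then 63 and 63, beside 0.888 and 0.045. For Pink1 (659 and 493, then 197 and 131, beside 0 and 0.935) the edgeR adjusted p was 0.365 and, with the block, 2.06e-04.

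Elsewhere, 4 untested genes with at least 6 reads over both libraries and a region over or before the start had reads of 1 allele only. Rnf212, a gene of meiotic crossing over, had 33 and 6 Spretus reads and 0 C57 reads (up to 7.69%), with 0.795 on C57 and 0.187 on Spretus over its start. Without a minimum of reads, edgeR gave it an adjusted p of 1.02e-09. That fit gave called genes smaller values than the main one, such as 9.76e-07 against 0.00156 for Gm5421. The value for Rnf212 is therefore not comparable with the other edgeR values given here. Tlr6, a Toll-like receptor gene, had 5 and 1 Spretus reads and 0 C57 (up to 50.0%), under 0.737 and 0.176. Spesp1, a sperm protein gene, had 8 and 1 Spretus reads and 0 C57 (up to 33.3%), with 0.893 and 0.145 over part of its promoter window. Shcbp1l had 5 and 2 C57 reads and 0 Spretus (up to 42.9%), with 0.143 and 0.796 before its start. In each of these 4 the allele without reads was the more methylated one. They were picked for their one-sided reads, so this is a description, and it was not tested.

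Genes near a region elsewhere with at least 6 reads, all from 1 allele, were also counted. The allele without reads was the more methylated one in 10 of 12. The exceptions were Gm5814, with 24 and 5 Spretus reads and 0 C57 near 0.529 and 0.859, and Ccdc60, with 6 and 3 C57 reads and 0 Spretus over 0.802 and 0.177. Among the 10, 1700048O20Rik had the most reads, 39 and 4 from C57 and 0 from Spretus (up to 6.98%), beside 0.486 and 0.867. Another of the 10, Mir344g, lies under a region between Snrpn and Magel2 that counts as elsewhere only by the 50 kb limit. These 12 genes were picked for their one-sided reads, so the count is a description of them, and it was not tested. How often all reads come from 1 allele among all autosomal genes of similar depth was not counted. At imprinted loci the allele without reads was the more methylated one in 6 of 6 such genes.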

How the data were processed

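Regions came from the authors' deposited list of allelic regions, in which every region has a fraction of methylation for either allele. Of 1613 regions, 13 without levels, all at most 31 bp long, were left out. The RNA-seq tables hold, per the file headers, raw counts of reads from the C57 and the Spretus allele for each gene, and 1 deposited FPKM value per gene. Per the submitters' processing notes, TopHat2 2.0.9, Cufflinks 2.1.1, HTSeq 0.6.0 and bedtools 2.2.4 were used on mm10, with no role for each. The name of the region list points to methylpy. The sources used here do not give how reads were assigned to alleles, the annotation or the strand of counting.

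Region coordinates are as listed, and gene loci are counted from 1. A region was placed in a gene when it overlapped a locus of the RNA-seq table by at least 1 bp, near a gene within 10 kb, and at an imprinted locus within 50 kb of a listed gene. Promoter windows were matched by symbol through RefSeq names: of 432 symbols near regions 341 had a RefSeq name and 209 a window. Reads were tested with edgeR 4.0.16 in R 4.3.3 (glmQLFit and glmQLFTest, TMM, allele as the only term, at least 10 reads in each library, Benjamini-Hochberg over all genes, threshold 0.05) and alternatively with DESeq2 1.42.0. The residual degrees of freedom were 2 and the prior 9.34. Within a library both alleles were read from 1 RNA preparation, which pairs the columns by design, and over 7565 genes their deviations had a correlation of 0.601. The fit with this block was an alternative. The fit and the interval functions were tested on simulated data. Fisher's tests and intervals used SciPy 1.17.1. Reads carry no molecular identifiers, so intervals cover counting error only.

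The regions and the gene lists were chosen with earlier results of these data known. Named were all regions at imprinted loci, elsewhere the 10 longest in each direction, clusters of 3 or more, listed imprinted genes nearby with at least 10 reads in each library, called genes elsewhere, and genes overlapping a named region. Regions and genes described beyond that rule were chosen after their values were seen.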

Additional observations from a re-analysis of the deposited data

How the results depend on the processing

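The share of long autosomal regions higher on C57 (58.4%) stayed between 56.8% and 60.2% with a minimum length of 100 or 500 bp, with differences of at least 0.5 and with each cluster counted once, and was 69.4% among the 49 regions with a difference of at least 0.8. The 50 regions at imprinted loci became 37, 40 and 52 at 2, 10 and 200 kb. Of the 177 regions in a gene locus, 160 lay wholly inside 1 locus and 69 were in a gene with at least 1 FPKM in each library. Clusters numbered 12 and 20 at 2 and 50 kb against 11. At imprinted loci the calls, 23 of 28 tested genes, ranged from 19 of 28 with DESeq2 to 30 of 40 within 50 kb. The replicate block (the library as a block) left them at 23. They fell to 15 with at least 50 reads in each library, when 21 genes were tested. Elsewhere 13 of 160 tested genes were called, with 7 of 89 for genes overlapping a region and 27 of 370 within 50 kb. The replicate block gave 39 of 160, no minimum of reads 30 of 264 and at least 50 reads 2 of 74. Of all tested autosomal genes, 5.43% were called in the main fit and 22.5% with the block. Their share under the other minima of reads was not counted. The 41 single genes examined were the tested genes at imprinted loci and the genes called elsewhere, so 36 were called in the main fit. Over all tested genes elsewhere the block raised the calls from 13 to 39. It changed no call among the 41 genes, which follows largely from how they were chosen. No called gene among them changed sign under the settings run, while the sign of 4 uncalled genes did, Blcap with DESeq2 and without library 1, Igf2r without library 1, Mcmbp without library 2 and Gnas with a shared library total. The median Spretus share elsewhere was 47.3% to 47.7% near regions higher on C57 and 47.4% to 47.5% near regions higher on Spretus when either RNA library was left out. No test was possible with 1 library. The depth of library 2 limits which genes could be tested, and that behind the methylation levels is unknown. The distance of 2 kb to a start was chosen after seeing the data. At 1 and 5 kb the called genes elsewhere were 2 of 17 and 2 of 28, beside 5.43% of all tested autosomal genes.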
